A study of Mus musculus with 2 samples.

Results

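Troponin is the calcium switch of striated muscle. It is a complex of 3 kinds of subunit, and its 8 genes, measured by 12 probe sets, are described here in cultured mouse skeletal myoblasts that lack the forkhead transcription factor gene Foxj3. The members were all probe sets that the platform annotation pairs with Tnnc1, Tnnc2, Tnni1, Tnni2, Tnni3, Tnnt1, Tnnt2 or Tnnt3, 8 of 18193 named genes and 12 of 45037 probe sets. RNA of 1 Foxj3 KO culture and 1 Foxj3 WT culture was hybridised to 1 Affymetrix Mouse430_2 array each. Both cultures were skeletal myoblasts after 3 passages in medium with 20% fetal bovine serum, harvested at 80% confluency. The sources used here give neither the strain and age of the animals nor whether a culture came from 1 animal or several.

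Troponin C binds calcium, troponin I holds the thin filament in the inhibited state, and troponin T anchors both to tropomyosin. Slow skeletal fibres use Tnnc1, Tnni1 and Tnnt1, fast fibres use Tnnc2, Tnni2 and Tnnt3, and adult heart uses Tnnc1 with Tnni3 and Tnnt2. Tnnt2 is also known as a transient product of embryonic and newly differentiating skeletal muscle, and the genes as a group are known to be switched on when myoblasts leave the cell cycle and form myotubes. Tnni3 is best known as a heart gene and as the source of a blood marker of heart damage.

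There was 1 array per genotype, so the spread between cultures is unknown, no p-value was computed, and every value describes these 2 arrays. Values are signal intensities in the arbitrary units of the deposited table. Signals were called detected above 47.04, the 40th percentile of all values and termed the floor, and values under it were raised to it before a ratio was taken, so that a ratio with 1 array under the floor is a bound. Direction is KO over WT. The median intensity was 63.94 on the KO array and 62.03 on the WT array. The targeted gene Foxj3 read 77.28 on the KO array and 495.51 on the WT array by its brightest probe set, but 99.40 on the KO array and 79.74 on the WT array by another, and its remaining probe set was under the floor on both. The sources used here do not say which part of Foxj3 was removed, so these probe sets do not settle the labels. Of the 8 myoblast markers examined (Myod1, Myf5, Des, Cdh15, Chrna1, Pax7, Ncam1 and Itga7) all exceeded the floor on 1 array or both, with summed signals of 8361 on the KO array and 8397 on the WT array. The near-equal sums hide opposite changes. By main probe set 5 of the 8 read lower in KO, such as Des (1.86-fold), while Myod1 was 2.77-fold higher. Another Des probe set read higher in KO, at 139.24 on the KO array and 78.74 on the WT array. The largest part of both sums was Chrna1, at 3103.88 on the KO array and 3028.60 on the WT array. These 3 were named once their values were known. Precision is limited by the number of arrays.

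Every troponin gene read lower on the KO array. All 8 were at least 2-fold lower and none was higher, where 6.72% of the 14597 measured genes were at least 2-fold lower and 3.73% at least 2-fold higher. Over the 8 genes the log2 ratio had a median of -2.93, a 7.62-fold lower signal, against -0.06 over all measured genes. Of the 8, 7 were over the floor on both arrays, while Tnnc2 was over it on the WT array alone and so could only read lower. The troponins were bright on the WT array, at 559.09 or more. Of the 1495 genes at least that bright there, the troponins among them, 6.35% were at least 2-fold lower in KO. At least 5-fold lower were 1.2%, or 18 genes, 7 of them troponins. All troponin genes but Tnnt2, which was 4.80-fold lower, were at least 5-fold lower. The 5-fold limit was chosen after the values were seen. In bulk RNA, fewer expressing cells and less RNA per cell cannot be told apart.

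**Figure D1:**
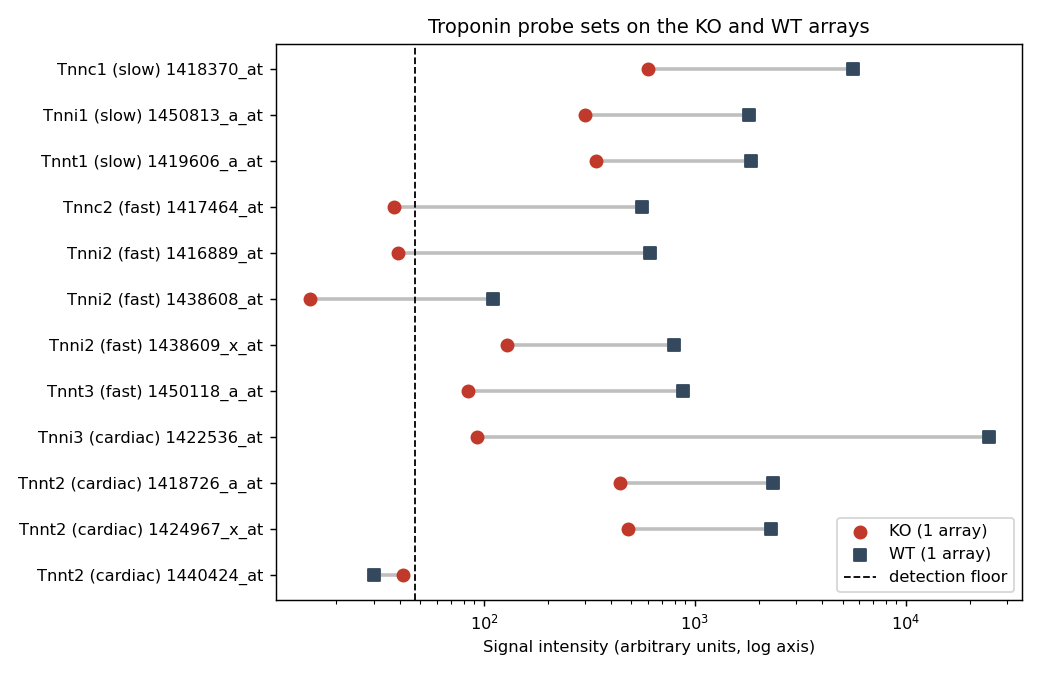
Signal intensity of each of the 12 troponin probe sets (log axis, arbitrary units), with the KO array as circles and the WT array as squares, 1 array each; the dashed line is the detection floor of 47.04. In 11 probe sets the KO circle lies left of the WT square, and Tnni3 has its circle at 92.58 and its square at 24578.

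Promoter windows of RefSeq (build GRCm38.p6, 250 bases before to 50 bases after an annotated start) were available for 6 of the 8 genes, with 8 windows in all. Shown are the windows of Tnni3 and Tnnt1, chromosomal neighbours with very different ratios, of Tnnc1, the gene shared by slow and cardiac muscle, and of Tnnt2, which held the most matches. Capitals mark matches on either strand. The motifs marked are the E-box CANNTG bound by MyoD and myogenin, CATTCCT (MCAT, bound by TEAD factors) and TATAAA (a form of the TATA box). The windows lie at chr7:4522479-4522778 (minus strand, Tnni3), chr7:4515926-4516225 (minus strand, Tnnt1), chr14:31208062-31208361 (plus strand, Tnnc1) and chr1:135836084-135836383 (plus strand, Tnnt2).
Tnni3: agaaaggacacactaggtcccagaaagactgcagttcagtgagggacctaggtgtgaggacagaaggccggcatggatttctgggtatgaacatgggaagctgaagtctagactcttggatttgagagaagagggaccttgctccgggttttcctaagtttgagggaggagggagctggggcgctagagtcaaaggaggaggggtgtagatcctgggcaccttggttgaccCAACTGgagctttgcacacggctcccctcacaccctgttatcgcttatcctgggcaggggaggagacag
Tnnt1: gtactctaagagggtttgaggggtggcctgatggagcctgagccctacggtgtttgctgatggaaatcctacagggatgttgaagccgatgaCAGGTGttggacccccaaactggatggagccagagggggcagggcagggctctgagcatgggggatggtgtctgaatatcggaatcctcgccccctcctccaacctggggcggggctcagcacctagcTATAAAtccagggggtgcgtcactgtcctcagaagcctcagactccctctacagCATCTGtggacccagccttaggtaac
Tnnc1: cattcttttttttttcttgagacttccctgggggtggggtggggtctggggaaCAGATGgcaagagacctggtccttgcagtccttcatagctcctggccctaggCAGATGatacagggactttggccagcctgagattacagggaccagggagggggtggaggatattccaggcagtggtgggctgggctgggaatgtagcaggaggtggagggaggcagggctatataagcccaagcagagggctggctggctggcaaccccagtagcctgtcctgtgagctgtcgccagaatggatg
Tnnt2: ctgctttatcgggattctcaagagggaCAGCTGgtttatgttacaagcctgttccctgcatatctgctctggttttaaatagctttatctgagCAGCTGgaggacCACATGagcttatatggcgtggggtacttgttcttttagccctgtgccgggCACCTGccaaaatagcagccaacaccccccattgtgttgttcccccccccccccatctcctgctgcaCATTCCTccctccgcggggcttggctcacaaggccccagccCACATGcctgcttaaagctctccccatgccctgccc

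An E-box match was present in 8 of 8 troponin windows and in 72.3% of all 32851 windows of the same length, so its presence does not set these genes apart. The windows differed in the number of matches: Tnni3 held 1 E-box, 19 bases before the start, while the Tnnt2 window shown held 5 E-boxes and an MCAT element 27 bases before the start. MCAT was found in 1 of 8 troponin windows and in 5.36% of all windows. The exact string TATAAA was found in Tnnt1 alone among the troponin windows, 30 bases before the start, and in 13.6% of all windows. Other forms of the TATA box, such as the unmarked tatataag in the Tnnc1 window, were not searched. The MEF2 site, the CArG box bound by SRF and the forkhead core GTAAACA were searched on both strands as well and matched none of the 8 windows, against 3.19%, 1.63% and 3.65% of all windows. These letter matches describe the windows only. The windows of Tnni1 (2 overlapping ones), Tnnc2 and the second start of Tnnt2 held E-box matches and no other motif of the search, and Tnni2 and Tnnt3 are named without a sequence.

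The calcium-binding subunits were both lower in KO. Tnnc1, the troponin C of slow and cardiac muscle, read 597.93 on the KO array and 5616.64 on the WT array, 9.39-fold lower (log2 ratio -3.23). It stayed far above the floor on both arrays. Tnnc2, the fast troponin C, read 37.53 on the KO array and 559.09 on the WT array, so that it was at least 11.9-fold lower, with the KO value under the floor. Each gene had 1 probe set, and neither could be checked against another.

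The inhibitory subunits of skeletal muscle were lower by similar amounts by main probe set, though not by every probe set of Tnni2. Tnni1, the slow troponin I, read 299.98 on the KO array and 1792.06 on the WT array (5.97-fold lower, log2 ratio -2.58). Tnni2, the fast troponin I, read 128.40 on the KO array and 794.10 on the WT array by its main probe set 1438609_x_at (6.18-fold lower, log2 ratio -2.63). Its probe set 1416889_at, the one of the 3 annotated with a RefSeq transcript of the gene, read 39.13 on the KO array and 610.71 on the WT array, at least 13.0-fold lower. The dimmest one, 1438608_at, read 14.93 on the KO array and 110.39 on the WT array, at least 2.35-fold lower. The 3 probe sets of Tnni2 therefore shared the direction, and the KO signal of 2 of them was under the floor.

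The tropomyosin-binding subunits included the smallest changes of the family. Tnnt1, the slow troponin T, read 340.34 on the KO array and 1842.94 on the WT array (5.41-fold lower, log2 ratio -2.44). Tnnt3, the fast troponin T, read 84.09 on the KO array and 877.43 on the WT array (10.4-fold lower, log2 ratio -3.38). Tnnt2, the cardiac and embryonic troponin T, read 479.33 on the KO array and 2301.41 on the WT array by its main probe set 1424967_x_at (4.80-fold lower, log2 ratio -2.26). The probe set 1418726_a_at of Tnnt2 gave nearly the same values, 442.69 on the KO array and 2336.85 on the WT array (log2 ratio -2.40). The last Tnnt2 probe set, 1440424_at, was not annotated with a RefSeq transcript of the gene and was under the floor on both arrays (41.48 on the KO array and 30.25 on the WT array), so it gave no ratio.

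Sorted by fibre type, the slow and fast members overlapped by main probe set, through Tnni2 alone. The log2 ratios of the slow genes Tnnc1, Tnni1 and Tnnt1 ranged from -3.23 to -2.44 with a median of -2.58. Those of the fast genes Tnnc2, Tnni2 and Tnnt3 ranged from -3.57 (Tnnc2, a bound) to -2.63 (Tnni2) with a median of -3.38. By its probe set 1416889_at Tnni2 had a log2 ratio of -3.70, also a bound. With that value every fast gene lay below every slow gene. The slow median minus the fast median was 0.80. Both this gap and the order of the genes depended on the floor. With the floor at the 60th percentile Tnnc2 had a log2 ratio of -2.69, a smaller change than that of the slow Tnnc1 (-3.23). The medians were then -2.58 for the slow and -2.69 for the fast genes. Different probe sets of 1 gene differed with an SD of 0.88 in log2 ratio, over the 3047 genes with exactly 2 probe sets above the floor on both arrays, and whether slow and fast members differ was not tested. The 7 genes other than Tnni3 spanned 1.31 log2 units in all. The cardiac isoforms had no common size, since Tnnt2 had the smallest change of the family and Tnni3 the largest.

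**Figure D2:**
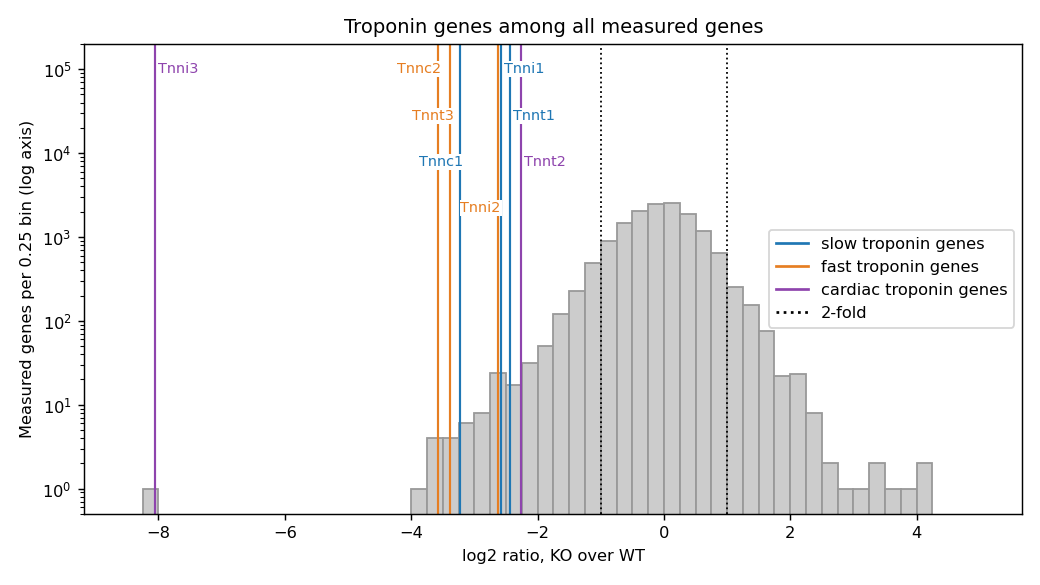
Histogram of the log2 ratio, KO over WT, of the 14597 measured genes (log count axis), with a line for each troponin gene coloured by slow, fast or cardiac type and dotted lines at 2-fold. The 7 lines from Tnnc2 (-3.57, a bound) to Tnnt2 (-2.26) lie in the lower tail, and Tnni3 lies alone at -8.05.

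Tnni3, the cardiac troponin I, read 92.58 on the KO array and 24578.43 on the WT array by its single probe set, 1422536_at, which is annotated with a RefSeq transcript of the gene. The KO signal was 0.377% of the WT signal, a 265-fold difference (log2 ratio -8.05), where that share was 9.58% to 20.8% by main probe set in the other genes over the floor on both arrays, and Tnnc2 was under the floor in KO. This was the highest of the 45037 signals on the WT array, and its KO signal was 17090th in order on the KO array. Ranks of signals are not ranks of transcript amounts, because probe sets differ in how well they bind. On the log2 scale Tnni3 lay 4.67 below Tnnt3, the next lowest of the troponins over the floor on both arrays, and 5.79 below Tnnt2.

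Among all probe sets, with values under the floor raised to it, 7 differed at least 16-fold between the arrays, and Tnni3 was the single one of them that was lower in KO. The next lowest log2 ratio was -3.97. Bright probe sets otherwise read alike on both arrays. Of the 100 brightest of the WT array, 98 differed less than 2-fold, between log2 ratios of -0.64 and 0.31, and beside Tnni3 only 1455693_x_at, which has no single gene name here, exceeded that, at 7064.75 on the KO array and 19746.65 on the WT array. The KO array showed a like case in the other direction. Its brightest probe set, 1440514_at, also without a gene name here, read 28908.94 on the KO array and 2778.63 on the WT array (10.4-fold higher), while 98 of its 100 brightest differed less than 2-fold. The remaining exception was a probe set of the actin gene Actb, 1436722_a_at, at 9663.02 on the KO array and 3869.76 on the WT array. These 3 probe sets were named once their values were known. The brightest probe set of each array was thus the one with the largest ratio among that array's 100 brightest. Whether the Tnni3 signal of the WT array reflects the transcript was not tested, and without Tnni3 the median log2 ratio of the other 7 troponin genes was -2.63.

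**Figure D3:**
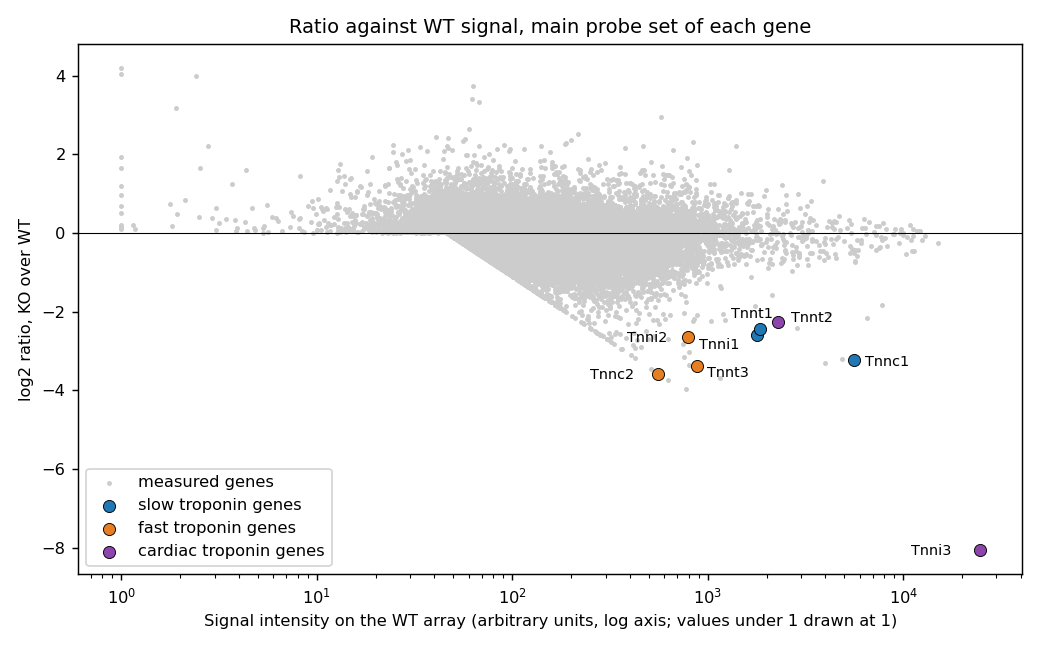
Log2 ratio, KO over WT, against signal intensity on the WT array (log axis, arbitrary units) for the main probe set of each measured gene, with the troponin genes coloured by type. The 7 troponins other than Tnni3 lie at the lower edge among genes of 559.09 to 5616.64 on the WT array, and Tnni3 lies far below and to the right of all other genes.

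The heart markers chosen as defining were near or under the floor, except Tbx5 on the KO array, while some genes of a wider heart list were well over it. Of 7 defining heart markers, Nppa, Nppb, Myh6 and Myl7 were under the floor on both arrays. The heart transcription factor gene Nkx2-5 read 64.59 on the KO array and 62.00 on the WT array, Gata4 51.27 on the KO array and 55.10 on the WT array, and Tbx5 116.25 on the KO array and 59.03 on the WT array. Summed over the 7 markers the signal was 346 on the KO array and 243 on the WT array. Over the wider list of heart lineage and heart sarcomere genes, 3 of 13 measured members were at least 2-fold lower and 0 higher, with a median log2 ratio of -0.10, which was 0.02 with quantile scaling. The 3 were Actn2 (5.79-fold), Myl3 (4.30-fold) and Ttn (2.24-fold), which encode alpha-actinin 2, a slow myosin light chain and titin and are used by skeletal muscle too. Another Myl3 probe set had a log2 ratio of 0.85. Hand2 was level, at 141.56 on the KO array and 140.73 on the WT array. Gata6 of the same list read 186.11 on the KO array and 168.57 on the WT array, and Pln 656.80 on the KO array and 739.17 on the WT array. Isl1, Mybpc3 and Ryr2 were under the floor on both arrays. Gata6, Pln, Isl1, Mybpc3 and Ryr2 were named once their values were known. Tnni3k, a kinase gene named for binding troponin I and chosen after its value was seen, read 61.07 on the KO array and 102.70 on the WT array.

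The genes of troponin I and troponin T lie in pairs along the chromosome. By the RefSeq order of protein-coding genes, Tnnt1 and Tnni3 are direct neighbours on chromosome 7, Tnni2 and Tnnt3 lie on chromosome 7 with Lsp1 between them, and Tnni1 and Tnnt2 lie on chromosome 1 with Lad1 between them. Ratios within a pair, troponin I minus troponin T on the log2 scale, differed by -0.32 for Tnni1 and Tnnt2, 0.75 for Tnni2 and Tnnt3, and -5.62 for Tnni3 and Tnnt1. Set beside them were 20 genes with a named probe set, those between the pairs and the nearest 3 on each side. Of these 20, 2 were at least 2-fold lower and 1 at least 2-fold higher, near the shares over all measured genes (6.72% and 3.73%). The lower ones were Pkp1, a desmosome gene, at 103.34 on the KO array and 276.22 on the WT array, and Cacna1s, the muscle calcium channel, at 25.41 on the KO array and 104.50 on the WT array. Lad1, in the gap between Tnni1 and Tnnt2, read 115.69 on the KO array and 49.45 on the WT array. Beside Tnni3 and Tnnt1 the 6 neighbours had log2 ratios from -0.62 to 0.63, and the nearest of them to Tnni3, the synaptotagmin gene Syt5, read 112.73 on the KO array and 138.04 on the WT array.

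The rest of the contractile apparatus was set beside the troponins by lists that share some members. Of 13 measured thick filament genes, 11 were at least 2-fold lower and 0 higher (median log2 ratio -2.63), among them the slow myosin heavy chain Myh7 (12.9-fold), the perinatal Myh8 (at least 11.8-fold) and the embryonic Myh3 (9.89-fold). Mybpc1, a myosin binding protein gene, moved least, at 598.92 on the KO array and 791.28 on the WT array. The thin filament partners of troponin were mixed: 5 of 13 were at least 2-fold lower and 1, Tpm4, at least 2-fold higher, with a median of -0.25. Lmod3 and Lmod2, which encode leiomodins that nucleate actin, were at least 9.05-fold and at least 4.46-fold lower, and the cardiac actin gene Actc1, active in developing skeletal muscle, 4.17-fold lower. The genes of tropomyosin, the direct partner of troponin T, differed in direction between probe sets. Tpm2 read 3005.52 on the KO array and 3170.84 on the WT array, Tpm1 1860.13 on the KO array and 1281.47 on the WT array, Tpm3 1675.29 on the KO array and 1116.16 on the WT array, and Tpm4, a nonmuscle form, 3860.31 on the KO array and 1279.89 on the WT array. These are main probe sets. Other probe sets of Tpm1 had log2 ratios of 1.84, 1.26 and -1.68, those of Tpm2 0.04, -0.31 and -1.04, and those of Tpm3 0.22, -0.44 and, with the WT array under the floor, at least 2.82. Tpm1, Tpm3 and Tpm4 were named once their values were known.

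Slow and fast genes other than troponins had medians closer to 0 than the troponins of the same type. Of 12 measured slow genes, 7 were at least 2-fold lower and 1, the myoglobin gene Mb, at least 2-fold higher (median -1.92), although another Mb probe set had a log2 ratio of -2.77. Mb was named once its value was known. Beside Myh7 the lower ones included Myoz2, a Z-disc gene (6.28-fold), and Casq2, a calcium store gene (6.25-fold), while Myh7b read 128.35 on the KO array and 112.13 on the WT array. Of 9 measured fast genes, 5 were at least 2-fold lower and 0 higher (median -1.58), among them Actn3 (6.52-fold), Myh1 (at least 6.17-fold) and the calcium pump gene Atp2a1 (4.95-fold), while Casq1 read 53.44 on the KO array and 64.33 on the WT array. Whether these lists differ from the troponins was not tested.

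Genes that supply calcium to troponin were lower as well. Of 14 measured, 10 were at least 2-fold lower and 0 higher, with a median log2 ratio of -1.59. They included Srl, which encodes sarcalumenin of the sarcoplasmic reticulum (10.3-fold), Casq2 and Atp2a1. Trdn and Cacnb1, named once their values were known, were under the floor on the KO array and at least 3.95-fold and at least 3.39-fold lower, so the order of these genes is not settled. The junctophilin gene Jph2 read 881.27 on the KO array and 787.91 on the WT array. Of the calcium-binding relatives of troponin C, 3 were measured, and all were dim: S100a1 read 57.84 on the KO array and 123.66 on the WT array, Pvalb 69.96 on the KO array and 49.10 on the WT array, and Calml3 47.32 on the KO array and 5.28 on the WT array.

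**Figure D4:**
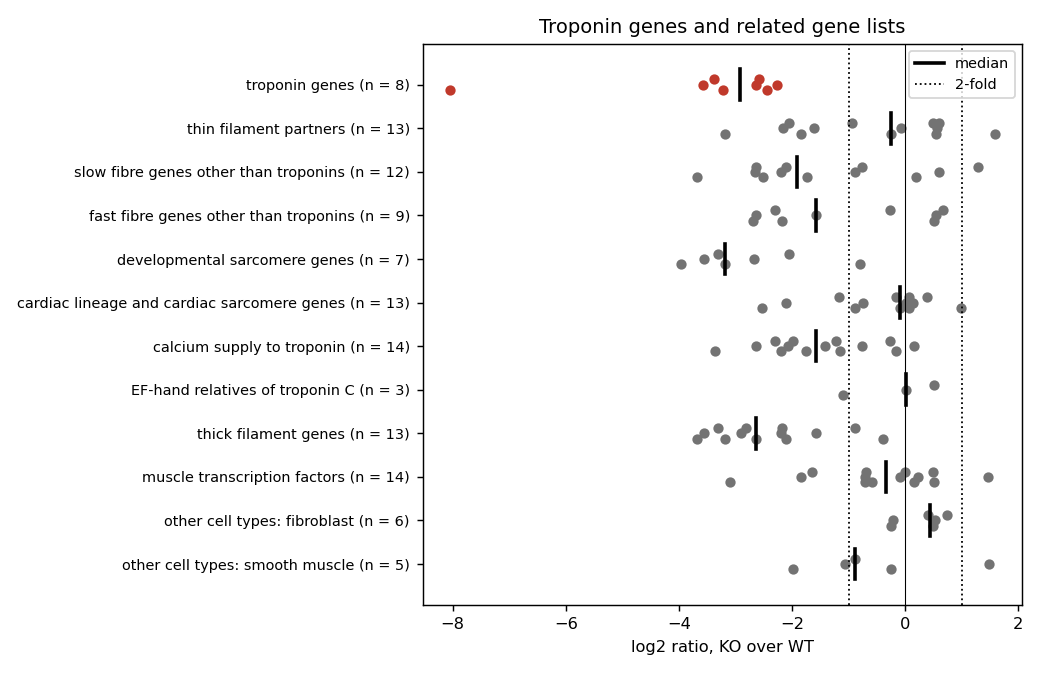
Log2 ratio, KO over WT, of each measured gene in the troponin family (top row) and in 11 related lists, with a black bar at the median and dotted lines at 2-fold. Troponin genes (median -2.93), developmental sarcomere genes (-3.19) and thick filament genes (-2.63) lie lowest, and fibroblast genes have a median of 0.44.

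Markers of differentiating muscle moved with the troponins. By main probe set, all 7 developmental sarcomere and fusion genes were below 0 and 6 were at least 2-fold lower (median log2 ratio -3.19), with a summed signal of 2575 on the KO array and 15648 on the WT array. Mymx, a membrane micropeptide of myoblast fusion, was 15.7-fold lower, and Chrng, the embryonic acetylcholine receptor subunit, read 503.18 on the KO array and 877.35 on the WT array by its main probe set, while another, with its WT signal of 34.20 under the floor, had a log2 ratio of at least 2.62. Among 14 measured muscle transcription factors, 3 were at least 2-fold lower and 1 at least 2-fold higher (median -0.35). By main probe set Mef2c was at least 8.58-fold lower, Myog, which encodes myogenin, 3.60-fold and Mef2d 3.14-fold, while Myf5 read 723.84 on the KO array and 731.38 on the WT array. Other probe sets of Mef2d had log2 ratios of -1.27 and 0.01. Those of Mef2c had -0.37 and, with the KO array under the floor, bounds of -2.38, -1.85 and -0.68. The higher one was Myod1, a determination factor, at 1750.95 on the KO array and 631.27 on the WT array, named after its value was seen. The part of any of these genes in the troponin signals was not tested.

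Markers of other cells had smaller ratios, with a few exceptions. Of 6 measured fibroblast genes, 0 were at least 2-fold lower or higher (median 0.44). Col1a2 read 701.07 on the KO array and 423.24 on the WT array, and Pdgfra 388.91 on the KO array and 453.70 on the WT array. Over all 8 genes of the fibroblast list, with Thy1 and Lum under the floor on both arrays, the summed signal was 1836 on the KO array and 1426 on the WT array. Of 5 measured smooth muscle genes, Myh11 (3.99-fold) and Smtn (2.10-fold) were at least 2-fold lower, Tagln was 2.79-fold higher, and Acta2 read 5080.98 on the KO array and 6049.03 on the WT array. Summed over all 6 genes of that list the signal was 8083 on the KO array and 9205 on the WT array. The 4 macrophage markers summed to 543 on the KO array and 523 on the WT array, with Cd68 and Ptprc under the floor on both and Adgre1 and Csf1r over it. The 3 endothelial markers summed to 196 on the KO array and 162 on the WT array, with Pecam1 under the floor on both. The 3 adipocyte markers summed to 178 on the KO array and 507 on the WT array, with Adipoq under the floor on both and Fabp4, a fatty acid binding protein gene chosen after its value was seen, at 113.25 on the KO array and 412.18 on the WT array. The part of other cells in the troponin signals was not tested.

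By the log2 ratio over the 2 arrays, the genes most like the median troponin were Zfp593, Myom1, Hspb8, Tmem158 and Myom2, each within 0.116 of it by main probe set. The search took only genes over the floor on both arrays with a WT signal at least 4 times the floor. Predicted transcripts and genes whose ratio is a bound were thus left out. Another probe set of Zfp593 read 61.64 on the KO array and 123.25 on the WT array, and another of Tmem158 had a log2 ratio of -0.56. Myom1 and Myom2 encode myomesins, which cross-link thick filaments at the M-band. Myom1 read 60.74 on the KO array and 455.23 on the WT array, and Myom2 read 106.66 on the KO array and 750.26 on the WT array, with its other measured probe sets at log2 ratios of -3.13 and -2.36. Hspb8, a small heat shock protein gene, read 99.51 on the KO array and 804.95 on the WT array, with other probe sets at -2.33 and 0.53. With 2 arrays this likeness is a single ratio and says nothing of a shared pattern.

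**Figure D5:**
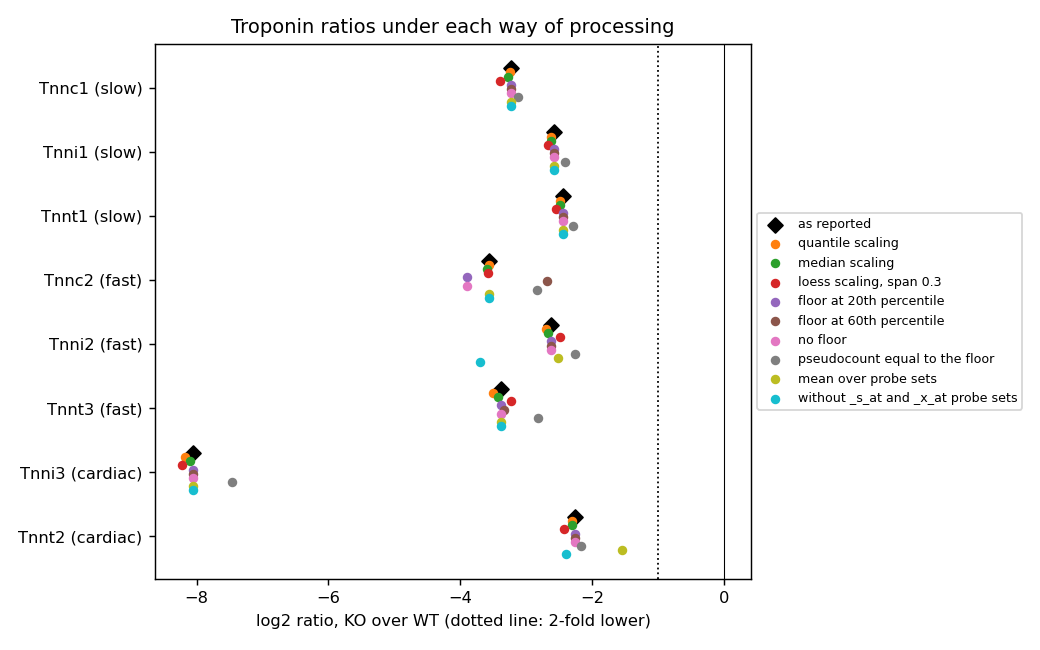
Log2 ratio, KO over WT, of each troponin gene under the reported processing (diamonds) and 9 alternatives (dots), with a dotted line at 2-fold lower. All 8 genes lie beyond 2-fold under all 10; Tnni3 ranges from -8.22 to -7.46 and Tnnt2 from -2.42 to -1.55.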

How the data were processed

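Total RNA (10 ug) was extracted and biotin-labelled cRNA was hybridised to 1 array per culture, per the labels' protocols. The authors deposited a table of linear signal intensities, with 1 value for each probe set on each array. How they summarised probes and scaled the arrays is not given in the sources used here. Of 42 fields of the arrays' scanner records, 40 were identical, per the file headers. The values were used without rescaling.

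Gene names came from the platform annotation and were updated by Entrez identifier from RefSeq (GRCm38.p6). A single symbol was available for 34945 of 45037 probe sets; 932 with several symbols and 9160 unnamed here named no gene. A gene was represented by its probe set with the highest mean log2 signal and counted as measured if that exceeded the floor on either array. The calculation (Python 3.11.15, pandas 2.3.3) was tested on simulated data. The members and all gene lists were chosen with earlier results of these data known. Genes named in each list were up to 3 with the largest absolute log2 ratios and the 1 nearest to 0; cell type markers came from separate lists, and genes marked otherwise were chosen after their values were seen. The order of genes by ratio uses values raised to the floor. Alternatives were quantile, median and loess scaling (span 0.3), other floors, a pseudocount of the floor value, averaging the probe sets of a gene, omission of probe sets ending in _s_at or _x_at, and thresholds of 1.5-fold and 3-fold. The number of value columns left without a sample was 0.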

Additional observations from a re-analysis of the deposited data

How the results depend on the processing

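With 1 array per genotype no replicate could be left out, and no alternative measures the spread between cultures. No paired analysis was possible because each group has 1 sample. All 8 troponin genes stayed at least 2-fold lower in KO under all 11 alternatives, and at least 3-fold lower with the higher threshold. Their median log2 ratio ranged from -3.31 to -2.61. No troponin ratio changed direction, while the medians of 2 lists near 0 did: the heart list (-0.10) was 0.02 with quantile scaling, and the relatives of troponin C (0.01) were at -0.32 with quantile scaling, -0.34 with median scaling and -0.52 with the floor at the 60th percentile. The median ratio of all measured genes moved from -0.06 to between -0.10 and -0.02. Only the following moved by more than the spread of probe sets (SD 0.63) or, for counts, by more than 1.5 times.

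Tnnc2 had a log2 ratio of -2.69 with the floor at the 60th percentile (fast troponin median -2.69) and -2.84 with the pseudocount, because its KO signal lay under the floor. Tnnt2 came to -1.55 as a mean over probe sets, which counts the one under the floor as 0, and Tnni2 to -3.70 without _s_at and _x_at probe sets. The cardiac troponin median was -2.26 without Tnni3.

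Over all genes, the 981 lower became 485 with the pseudocount, 490 with the mean over probe sets, 2811 at 1.5-fold and 221 at 3-fold. The 544 higher became 873 and 353 with the floor at the 20th and 60th percentiles, 898 without a floor, 313 with the pseudocount, 330 with the mean over probe sets, 1866 at 1.5-fold and 109 at 3-fold.

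Among the lists, the fast fibre median was -0.50 with the floor at the 20th percentile, the slow fibre median -0.89 without _s_at and _x_at probe sets and the smooth muscle median -0.09 with the mean over probe sets. The cause was not tested. The 1 relative of troponin C that was lower became 0 with the floor at the 60th percentile, the pseudocount, the mean over probe sets, 3-fold or no _s_at and _x_at probe sets, and 1 was higher without a floor. The 2 lower smooth muscle genes became 1 with the floor at the 60th percentile, the pseudocount, the mean over probe sets or 3-fold, and the 1 higher became 0 at 3-fold. Without a floor, or with it at the 20th percentile, fibroblast genes had 1 lower and 1 higher, and 1 higher at 1.5-fold. The 1 higher slow gene and the 1 higher transcription factor became 0 with the mean over probe sets and at 3-fold. At 1.5-fold, 2 thin filament, 2 slow, 1 fast and 1 heart gene were higher, and 5 heart genes and 7 transcription factors were lower.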
